A study of Mus musculus with 3 samples.

Results

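The 7 genes of cellular iron handling followed here in cultured helper T cells were Tfrc, Slc11a2, Fth1, Ftl1, Slc40a1, Aco1 and Ireb2. They are the transferrin receptor, an iron transporter, both ferritin chains, the iron exporter and both iron regulatory proteins. The set was named by gene symbol, with earlier results of these data known. The 7 genes had 10 probes among the 39429 probes of the array, on which 19747 genes could be named in all. Tfrc had 3 probes, Slc11a2 had 2, and each other gene had 1.

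Expression was measured on 3 Agilent arrays, each carrying RNA of 1 polarised culture in the red dye (Cy5) and RNA of naive CD4 T cells in the green dye (Cy3). The starting cells were splenic CD4 T cells of C57BL/6 mice aged 6 to 8 weeks, from which naive cells were sorted by magnetic beads. All 3 cultures were stimulated for 3 days with plate-bound anti-CD3e and soluble anti-CD28 (10 µg/ml each). For Th2 cells 5 ng/ml of IL-4 was added, with 1 ng/ml of IL-2 and 2 µg/ml of anti-IFN-gamma. For Th9 cells 2 ng/ml of human TGF-beta 1 and 1 ng/ml of IL-4 were added, with 0.2 ng/ml of IL-2 and 5 µg/ml of anti-IFN-gamma. For induced regulatory T cells (iTreg) 5 ng/ml of human TGF-beta 1 was added, with 0.4 ng/ml of IL-2 and 5 µg/ml each of anti-IFN-gamma and anti-IL-4. There was no culture that was activated without polarising cytokines, so a ratio against naive holds activation, time in culture and medium together. Each culture was hybridised once with no dye swap, and whether the naive RNA was 1 extract or mice were pooled is not given in the labels. No spread between replicates exists, and no test between groups is given.

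Signal clear of background was found for 48.9% to 51% of gene spots in the culture channels and for 53% to 54.1% in the naive ones, and no spot was saturated. Of 8 T cell markers 7 had a named probe, and all of these were well above background in every channel, Cd3e and Cd4 among them. Their ratios over naive were -1.94, -1.91 and -0.89 for Cd3e and -0.62, -0.47 and -0.35 for Cd4 in Th2, Th9 and iTreg. The lineage genes Il4, Il9 and Foxp3 were each highest in the culture of their label. Il4 was higher than naive by log2 5.08 in Th2, Il9 by 6.52 in Th9 and Foxp3 by 3.49 in iTreg. These genes were not confined to those cultures. Il9 was higher by at least 2.64 in Th2, and in Th9 Il4 was higher by 1.04 and Foxp3 by 1.28. Foxp3 stood at -0.68 in Th2, while in iTreg neither the Il4 spot nor the Il9 spot cleared background. In bulk RNA, fewer cells of a type and less RNA per cell cannot be told apart.

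Cells take up iron bound to transferrin through the transferrin receptor, move it out of endosomes through a divalent metal transporter, store the surplus in ferritin and release it through ferroportin. Iron regulatory proteins sense cytosolic iron. When iron is scarce they bind hairpins, called iron-responsive elements, in mRNAs, where they block translation of ferritin and ferroportin and stabilise the transferrin receptor message. Proliferating T cells depend on this uptake, and the receptor, also known as CD71, is a classical marker of activated lymphocytes. Much of this control acts on translation and on protein, which an mRNA array does not record.

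Promoters are shown for the receptor and the ferritin chains, since the results below set the ratios of uptake beside those of storage. RefSeq windows on assembly GRCm38.p6 were at hand for 5 of the 7 genes, namely Tfrc, Fth1, Ftl1, Aco1 and Ireb2. The 250 bases before an annotated start are printed 5′ to 3′ on the gene's strand, with motif matches in capitals. The Tfrc window is the one before the downstream of its annotated starts (chr16:32608872-32609121, plus strand), the Fth1 window lies at chr19:9982396-9982645 (plus strand) and the Ftl1 window at chr7:45459887-45460136 (minus strand).
Tfrc: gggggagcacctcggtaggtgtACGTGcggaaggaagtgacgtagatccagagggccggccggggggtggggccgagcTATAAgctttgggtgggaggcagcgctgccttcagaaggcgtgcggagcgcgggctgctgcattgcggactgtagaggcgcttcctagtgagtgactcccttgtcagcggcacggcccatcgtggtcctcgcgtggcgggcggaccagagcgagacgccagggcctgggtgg
Fth1: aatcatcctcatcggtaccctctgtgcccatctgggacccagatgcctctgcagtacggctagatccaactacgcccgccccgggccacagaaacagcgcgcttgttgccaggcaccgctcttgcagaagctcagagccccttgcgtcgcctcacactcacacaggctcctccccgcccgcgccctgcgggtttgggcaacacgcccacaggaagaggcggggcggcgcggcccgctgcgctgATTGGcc
Ftl1: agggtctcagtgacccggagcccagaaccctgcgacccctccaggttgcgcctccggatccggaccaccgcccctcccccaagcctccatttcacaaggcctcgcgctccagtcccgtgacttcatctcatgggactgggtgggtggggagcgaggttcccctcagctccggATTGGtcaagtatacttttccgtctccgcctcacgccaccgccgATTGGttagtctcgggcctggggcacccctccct

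In all, 5 motifs were searched, each on both strands except TATAA, which was read on the gene's strand only. They were CACGTG (the E-box, which contains the next motif), ACGTG (the core bound by hypoxia-inducible factors), TGACNNNGC (the antioxidant response element), CCAAT and TATAA. In the Tfrc window ACGTG lay 228 to 224 bases and TATAA 172 to 168 bases before the start. Of 32851 annotated windows of this length, 16.6% held ACGTG and 16% held TATAA. The Fth1 window held CCAAT on the opposite strand (printed as ATTGG) 7 to 3 bases before the start, and the Ftl1 window held it at 78 to 74 and at 34 to 30 bases. CCAAT was in 33.8% of all windows, so its presence does not set these promoters apart. The window before the upstream Tfrc start held CCAAT 124 to 120 bases ahead of it. CACGTG (6.02% of windows) and TGACNNNGC (10.2%) were found in none of the windows of the 5 genes, which says only that these letters are not there. The Aco1 and Ireb2 windows and the upstream Fth1 window held none of the motifs.

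Among the 7 genes, the transferrin receptor was far higher in every culture than in naive cells, and it was the only one at least 2-fold different among those with both channels above background. By its brightest probe, the level of Tfrc was 11.98 in Th2, 12.07 in Th9 and 9.84 in iTreg on the log2 scale, against 8.23, 8.21 and 8.20 in the naive channels of the same arrays. All 3 cultures lay above all naive channels, which spanned 0.03 on the log2 scale, and iTreg lay between naive cells and the other cultures. Here a level is the log2 intensity of 1 channel after scaling between arrays, and it is compared for 1 probe at a time.

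As a log2 ratio, Tfrc was higher than naive by 3.75 ± 0.44 in Th2 (13.4-fold), by 3.87 ± 0.45 in Th9 (14.6-fold) and by 1.64 ± 0.27 in iTreg (3.11-fold). The ± is the error the scanner software gave for its own log ratio on 1 array, set here beside the loess ratio. It covers the spot and not the culture (n = 1 array each). Ranked from the highest ratio, Tfrc stood at place 76 of 10942 measured genes in Th2, 79 of 10779 in Th9 and 502 of 11116 in iTreg. A gene counts as measured where both channels were well above background.

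A different Tfrc probe, spotted 10 times on each array, gave nearly the same picture. Its ratio was 3.63 in Th2, 3.57 in Th9 and 1.67 in iTreg, with an SD of 0.045, 0.049 and 0.079 over the 9, 10 and 9 spots kept after outlier spots were dropped. The remaining probe was dimmer, and its naive channel was not well above background on any array. Its level was 8.48 in Th2, 8.54 in Th9 and 7.07 in iTreg, against 6.46, 6.38 and 6.52 in naive cells. By this probe Tfrc was at least 3.85-fold higher in Th2 and at least 4-fold higher in Th9. In iTreg the value was 1.46-fold, which is the spot's own ratio with loess (log2 0.55). The scanner software's own log ratio there was 2.0, to which its error of 0.51 belongs. Such a bound sets the bright channel against the higher of the dim channel's own signal and the lowest signal well above background in that channel. That lowest signal is not a detection limit, as some spots above it were not well above background. Where the dim channel's own signal is the higher, the bound equals the spot's ratio and carries its error. All 3 probes put Th2 and Th9 close together and iTreg below both.

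**Figure D1:**
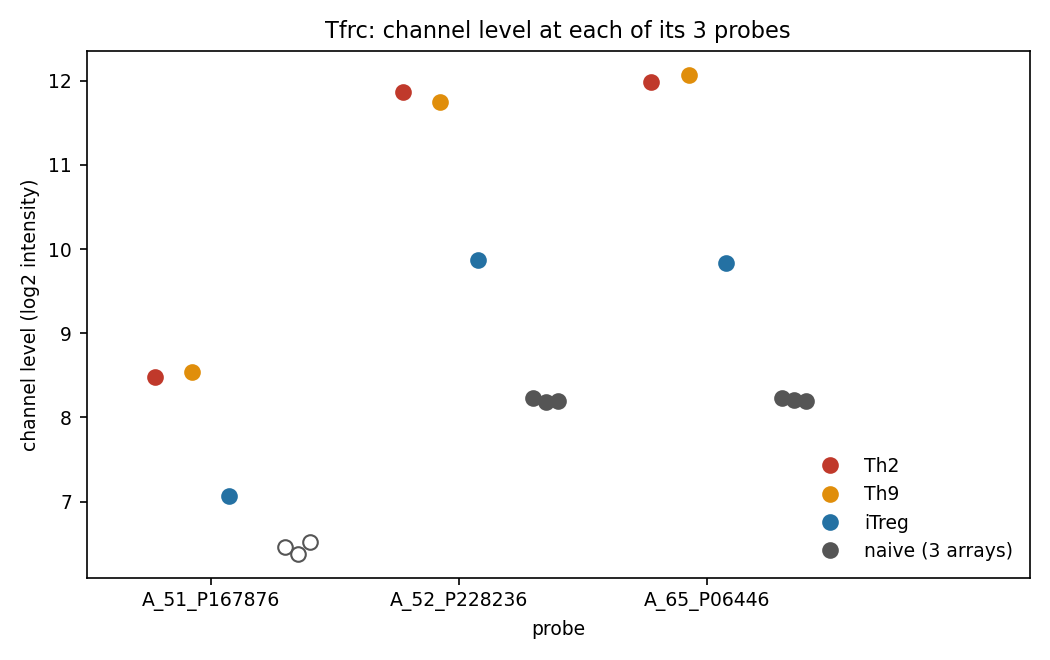
Channel level (log2 intensity, y axis) of the 3 Tfrc probes (x axis) in Th2, Th9, iTreg and the 3 naive channels, 1 array per culture; open points were not well above background. Levels are to be compared within a probe only, and at each probe Th2 and Th9 lie highest, iTreg lies between, and naive is lowest.

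Between cultures, 5 of the 7 genes were measured, not Slc40a1 and Aco1, and Tfrc was the only one of the 5 at least 2-fold different. It was lower in iTreg than in Th2 by log2 -2.11 ± 0.52 (4.32-fold) and lower than in Th9 by -2.23 ± 0.52 (4.7-fold). The probe with 10 spots gave -1.96 and -1.91, and the dim probe gave -1.41 and -1.47 when the Cy5 channels were compared directly. Between Th9 and Th2 the difference was 0.12 ± 0.63, smaller than its error and of the other sign (-0.11) with median centring. Ranked from the lowest difference, Tfrc stood at place 69 of 10535 genes for iTreg against Th2 and at place 32 of 10477 for iTreg against Th9. The error of a difference combines those of both ratios, and a dye effect of the probe cancels in it, but the naive channel is shared by design.

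Read against all genes, 1 of the 6 members measured in Th2 against naive was at least 2-fold different, where 29.3% of all measured genes were. In Th9 it was 1 of 5, against 31.1% of all genes, and in iTreg 1 of 5, against 18.4%. For iTreg against Th2 it was 1 of 5 members beside 13.6% of genes, and for iTreg against Th9 1 of 5 beside 13.1%. None of 5 members was 2-fold different between Th9 and Th2, where 2.66% of genes were. These shares are near the background, so by such counts the members as a set did not stand out. The median of the measured members was 0.06, -0.03 and -0.08 against naive in Th2, Th9 and iTreg. The medians of all genes were -0.02, -0.01 and -0.02. Between cultures the members' median was 0.02 for Th9 against Th2, beside -0.02 for all genes. It was -0.58 for iTreg against Th2 and -0.34 for iTreg against Th9, beside -0.0 and 0.01. These lower medians in iTreg were not tested.

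The genes with the ratios most like those of Tfrc, by Euclidean distance over the 3 cultures among 10346 genes measured on all arrays, were Top2a, Nuf2 and Shcbp1. Top2a, a DNA topoisomerase, stood at 3.69 in Th2, 3.76 in Th9 and 1.72 in iTreg, at a distance of 0.147. Nuf2, a kinetochore protein, stood at 3.55, 3.78 and 1.69 (distance 0.228), and Shcbp1 at 3.50, 3.98 and 1.82 (distance 0.331). The distance is a description over 3 points that share the naive RNA.

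Slc11a2 encodes the divalent metal transporter DMT1, which moves iron from the endosome to the cytosol after the receptor has delivered it. Unlike the receptor, it stayed within 2-fold of naive cells. Its level by the brighter probe was 8.41 in Th2, 8.90 in Th9 and 9.03 in iTreg, against 8.98, 8.94 and 9.11 in naive cells. Th2 lay clearly below the naive channels, whose range was 0.17, with a ratio of -0.58 ± 0.22. By their ratios Th9 (-0.03 ± 0.21) and iTreg (-0.08 ± 0.21) lay within their error of naive. The dimmer probe did not show the lower value in Th2 (0.08 ± 0.23) and put iTreg lowest (-0.33 ± 0.24). The probes thus differ in which culture they rank lowest, and whether they read different transcripts of this gene was not tested.

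The ferritin chains form the shell that stores iron, with the heavy chain Fth1 oxidising it on entry and the light chain Ftl1 supporting the mineral core. Neither chain differed 2-fold from naive cells with loess scaling. Fth1 had a level of 15.81 in Th2, 15.75 in Th9 and 15.44 in iTreg, against 16.50, 16.42 and 16.37 in naive cells. Every culture lay below every naive channel, by -0.69 ± 0.21, -0.66 ± 0.21 and -0.93 ± 0.22 as ratios. Ftl1 had 16.31 in Th2, 16.25 in Th9 and 15.91 in iTreg, against 16.28, 16.49 and 16.49 in naive cells. Its ratios were 0.03 ± 0.20, -0.24 ± 0.21 and -0.58 ± 0.21, so iTreg lay clear of the naive channels, Th9 just below them and Th2 inside their range of 0.21.

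Both ferritin spots were among the brightest of the array, at places 136 for Ftl1 and 164 for Fth1 of 10346 genes by mean intensity, and their ratios moved with the scaling. With each array centred on its median and no loess, the Th2, Th9 and iTreg ratios were 0.91, 0.65 and -0.49 for Fth1 and 1.66, 1.13 and -0.09 for Ftl1. The direction against naive therefore flips for Fth1 in Th2 and Th9 and for Ftl1 in Th9. The brightest 2% of genes (207) had medians of 0.02, 0.08 and 0.13 with loess and of 1.78, 1.56 and 0.74 with median centring. Fth1 lay below that median in every culture under both scalings. Ftl1 lay below it in Th9 and iTreg under both, and in Th2 with median centring only. Median centring also moved the median of all measured genes, to 0.33, 0.16 and -0.18.

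**Figure D2:**
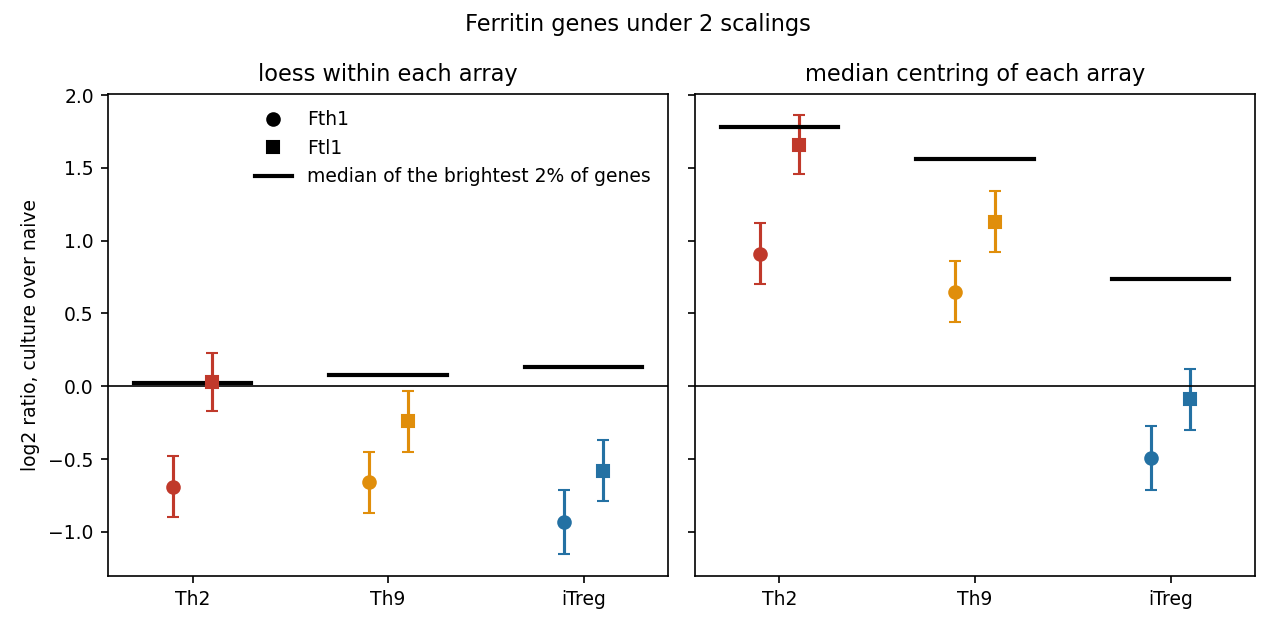
Log2 ratio over naive (y axis) of Fth1 (circles) and Ftl1 (squares) in each culture (x axis, 1 array each) with loess (left) and median centring (right); bars are the scanner software's error and black lines the median of the brightest 2% of genes. The sign of the ratios depends on the scaling, while Fth1 stays below the line in all panels.

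Between cultures the ferritin genes differed little with loess, and iTreg had the lowest value of each. Fth1 was lower in iTreg than in Th2 by -0.24 ± 0.31 and than in Th9 by -0.27 ± 0.31, both smaller than the error. Ftl1 was lower by -0.61 ± 0.29 and -0.34 ± 0.30. With median centring these differences were -1.40 and -1.14 for Fth1 and -1.75 and -1.22 for Ftl1, past 2-fold. Ferritin genes have processed copies in the mouse genome, and whether the probes also read such copies was not tested. The genes nearest to Fth1 in ratio were Wdr20, Cct3 and Pcgf6 (distances 0.042, 0.053 and 0.076), and those nearest to Ftl1 were Kif5b, Pik3r6 and Ddx56 (0.056, 0.094 and 0.1).

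Slc40a1 encodes ferroportin, the only known exporter of ionic iron in mammals, which is abundant in macrophages that recycle iron from red cells. It was clear of background in naive RNA only. Its spot read 5.88 in Th2, 6.21 in Th9 and 6.86 in iTreg, none of them well above background, against 7.79, 7.97 and 7.89 in the naive channels of those arrays. Set against the lowest signal well above background in the culture channel, Slc40a1 was at least 2.36-fold lower in Th2 and 2.94-fold lower in Th9 than in naive cells. In iTreg it was 2.05-fold lower, which is the spot's own ratio with loess (log2 -1.03). The scanner software's own log ratio there was -2.34, to which its error of 0.33 belongs. The cultures cannot be ranked, since all 3 values lie at background.

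Fewer markers of spleen macrophages were above background in the cultures as well. Of 15 macrophage markers 14 had a named probe, of which 3 in Th2, 4 in Th9 and 5 in iTreg were clear of background, against 11, 11 and 10 in the naive channels. Their summed intensity was 2130, 2250 and 2220 in Th2, Th9 and iTreg, against 3420, 3420 and 3460 in naive RNA. Vcam1, Spic, C1qc, Mrc1 and Lyz2 were above background in every naive channel and in no culture. Cd163, a haemoglobin scavenger receptor of macrophages, went the other way, with 7.51, 7.21 and 7.07 in Th2, Th9 and iTreg, all above background, and 6.26, 5.91 and 6.13 in naive cells, none above it. Cd5l stood at 0.34 in Th9 and was not above background in the other cultures. By bounds on the log2 scale, Vcam1 stood at -1.64 or lower in Th2 and at -2.01 or lower in Th9. In iTreg it stood at -1.72 ± 0.41, which is the spot's own ratio. Csf1r, the receptor for macrophage colony-stimulating factor, was above background in all channels at -0.60, -0.61 and -0.60. Adgre1, a general macrophage marker, was near background, with levels of 6.60, 7.19 and 6.45 in Th2, Th9 and iTreg and of 6.70, 7.14 and 6.75 in naive cells.

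The erythroid markers were mixed. Of 13 erythroid markers 10 had a named probe, and 6, 6 and 5 of them were above background in Th2, Th9 and iTreg, against 7, 6 and 6 in naive RNA. Their summed intensity was 2380 in Th2, 2640 in Th9 and 1930 in iTreg, against 5930, 6010 and 6310 in naive RNA. The alpha globin gene Hba-a1 stood at -2.54, -2.81 and -2.72, and the beta globin gene Hbb-bt at -2.20, -0.37 and -2.48. Epor, the erythropoietin receptor, was higher instead, by 2.82 in Th2 and by at least 2.73 in Th9. In iTreg it was higher by 1.72 ± 0.41, which is the spot's own ratio. Slc4a1, an anion exchanger of red cells, stood at 0.50 in Th2 and was not above background in the other cultures. Alas2, which marks erythroid precursors, was not well above background in any channel. Among 8 NK and CD8 T cell genes 5, 4 and 5 were above background in Th2, Th9 and iTreg, against 7 in naive RNA. They summed to 12600, 5750 and 7730, against 78500, 74800 and 73000. Most of each naive sum came from the granzyme gene Gzma, with naive levels of 15.99, 15.89 and 15.84. Its ratios were -2.8, -4.35 and -6.48, so the sums mainly follow this gene and not the list. The NK cell receptor gene Ncr1 was above background in naive RNA only, at 8.83, 8.88 and 8.83. Of the CD8 genes, Cd8b1 was above background in every channel, at ratios of 0.06, -0.8 and -0.3 in Th2, Th9 and iTreg. Cd8a was above background in no channel. Of 6 B cell markers, Cd79b was the 1 above background in each channel, and it was higher in the cultures, by 2.08, 2.03 and 1.83. Cd79a was not above background in any channel. The 6 summed to 2690, 2630 and 2410 in Th2, Th9 and iTreg, against 966, 954 and 966 in naive RNA. The part of these other cells in the Slc40a1 difference was not tested.

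Aco1 and Ireb2 encode the iron regulatory proteins IRP1, which is also the cytosolic aconitase, and IRP2, which is degraded when iron is plentiful. Ireb2 was higher than naive in each culture but did not reach 2-fold. Its level was 8.06 in Th2, 7.97 in Th9 and 7.46 in iTreg, against 7.15, 7.12 and 7.13 in naive cells. All cultures lay above all naive channels, whose range was 0.03, by 0.92 ± 0.26, 0.85 ± 0.26 and 0.33 ± 0.25. The difference of iTreg from Th2 was -0.58 ± 0.36 and from Th9 -0.52 ± 0.36, so the order of the cultures was that of Tfrc with smaller steps.

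The spot for Ireb2 was dim, and the offset added in background correction shrinks ratios of dim spots. With no offset the Th2, Th9 and iTreg ratios were 1.27, 1.22 and 0.48. By the scanner software's log ratio they were 1.34, 1.27 and 0.46. Under those settings Ireb2 was past 2-fold in Th2 and Th9. The genes nearest to it were Gtf3c3, Sh2b1 and Ccnk, at distances of 0.050, 0.066 and 0.070.

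Aco1 was at the edge of detection. Its level was 7.03 in Th2, 6.80 in Th9 and 6.79 in iTreg, against 6.93, 6.93 and 6.82 in naive cells, and the Th9 and iTreg spots were not well above background. In Th2 its ratio was 0.10 ± 0.34. Nothing can be said of its order across the cultures at this signal.

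**Figure D3:**
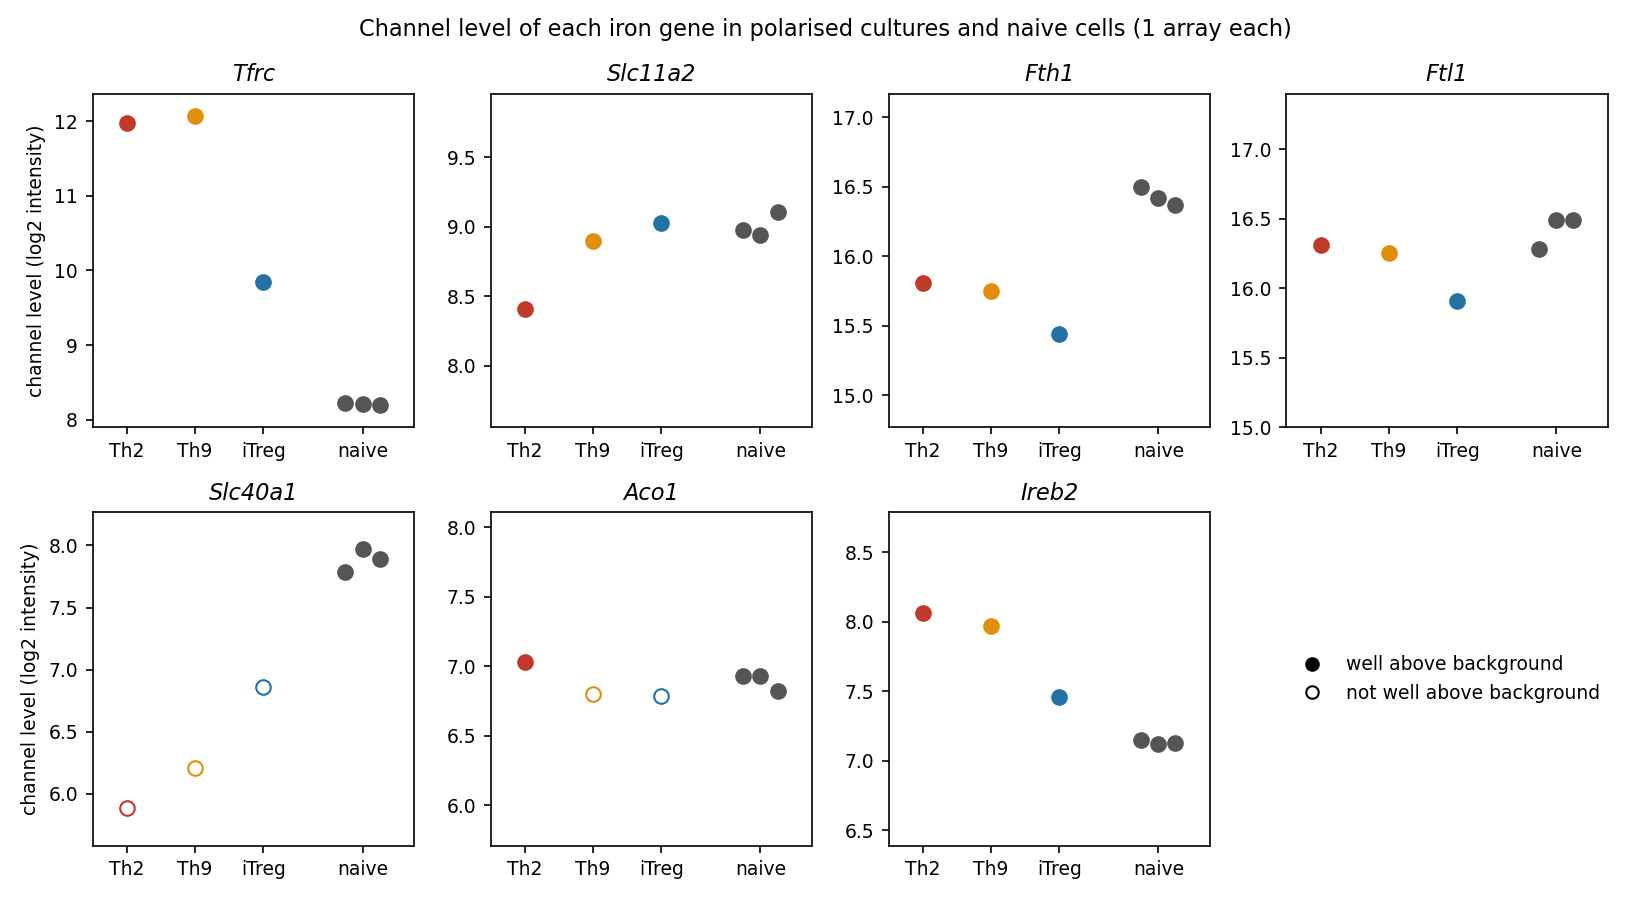
Channel level (log2 intensity, y axis, its range set for each panel) of the 7 iron genes in Th2, Th9, iTreg and the 3 naive channels (x axis), 1 array per culture, by the brightest probe of each gene; open points were not well above background. Tfrc and Ireb2 share the order Th2 and Th9 above iTreg above naive, Fth1 is highest in naive cells, and Slc40a1 is above background in naive cells only.

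A further 86 genes of iron metabolism were taken from lists of uptake, storage, export, regulation, mRNAs with an iron-responsive element, haem metabolism and iron-sulphur assembly. In Th2 against naive, 12 of the 69 with both channels measured were 2-fold higher or more and 6 were lower to that degree, beside 14.8% and 14.5% of all genes. In Th9 it was 13 higher and 6 lower of 68, beside 15.5% and 15.6%, and in iTreg 7 and 4 of 69, beside 10.2% and 8.15%. Medians were 0.07, 0.15 and 0.01. Between cultures 1 of 67 was higher and 0 lower in Th9 than in Th2, where 1.28% and 1.38% of all genes were. Of 67 genes 2 were higher and 6 lower in iTreg than in Th2 (6.87% and 6.69% of all genes), and of 68 genes 2 and 6 than in Th9 (6.81% and 6.29%).

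Among the 8 measured uptake genes, Tfrc included, those higher numbered 3 in Th2, 4 in Th9 and 2 in iTreg. Over all measured genes, 14.8%, 15.5% and 10.2% were higher in those cultures, and 14.5%, 15.6% and 8.15% lower. None of the 8 was lower by 2-fold in any culture, but with the scanner software's ratio Lcn2 was in Th9 and iTreg. Slc39a8, a transporter of zinc, manganese and iron, was higher in all cultures, by 1.53 ± 0.29 in Th2, 2.1 ± 0.32 in Th9 and 1.29 ± 0.27 in iTreg. Its relative Slc39a14 stood at 0.64 ± 0.22, 0.21 ± 0.21 and -0.55 ± 0.22. Slc48a1, a transporter of haem out of endosomes, was higher in Th2 (1.85) and Th9 (1.65) and stood at 0.39 in iTreg. Lcn2, which carries iron bound to siderophores, stood at -0.22, -0.60 and -0.40. The scanner software's ratio put it at -0.62, -1.17 and -1.08, and the authors' series values at -0.56, -1.15 and -1.04.

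In the storage list of 9 measured genes, both ferritin chains among them, 0 were higher and 3, 3 and 1 were lower in Th2, Th9 and iTreg. This depended on the scaling, since median centring gave 2 higher and 1 lower in Th2 and 1 higher and 1 lower in Th9. Of all measured genes, 14.8%, 15.5% and 10.2% were higher with loess and 14.5%, 15.6% and 8.15% lower. Herc2, a ubiquitin ligase that controls the turnover of Ncoa4, was lower in every culture, by -2 ± 0.29, -1.73 ± 0.28 and -1.14 ± 0.24. Pcbp1, a chaperone that hands iron to ferritin, stood at -1.01 ± 0.22, -1.05 ± 0.22 and -0.88 ± 0.22. Gabarapl2, a protein of the autophagosome membrane, stood at -1.5, -1.49 and -0.65. Ncoa4, the receptor that delivers ferritin to lysosomes, stood at -0.12, 0.40 and 0.24. Of the export genes Flvcr1, a haem exporter, was lower in every culture (-1.21, -1.45 and -1.13, but -0.94 in Th2 with median centring), and Abcg2 stood at -0.24, -0.42 and 0.11.

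Of the measured regulators, those higher numbered 2 of 9 in Th2, 2 of 7 in Th9 and 1 of 7 in iTreg. None was lower by 2-fold. The shares over all measured genes were 14.8%, 15.5% and 10.2% higher and 14.5%, 15.6% and 8.15% lower. With the scanner software's ratio and with the authors' series values 4 regulators were higher in Th2. Nedd4, a ubiquitin ligase, was higher in Th2 (2.12 ± 0.31) and Th9 (1.6 ± 0.27) and stood at 0.31 ± 0.22 in iTreg. Ndfip1, an adaptor of such ligases, was higher in all cultures (1.63, 1.51 and 1.04). Skp1, a subunit of the ligase that degrades IRP2, was the lowest of the list (-0.88, -0.63 and -0.36), and it stood at 0.12 in Th2 and 0.16 in Th9 with median centring.

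Among 7 measured mRNAs known to carry an iron-responsive element in mammals, Tfrc was the 1 at least 2-fold higher in each culture, and 0 were lower. With median centring 3 were higher in Th2 and 3 in Th9, and 2 were in Th9 with the scanner software's ratio, with no offset and with the authors' series values. The lowest of the list was Fth1 in each. The medians were 0.03, 0.14 and -0.08. With loess 14.8%, 15.5% and 10.2% of all measured genes were higher and 14.5%, 15.6% and 8.15% lower. A further mRNA of this list, Cdc42bpa, was not above background in naive cells and was higher in the cultures by at least 1.15 (Th2), 1.33 (Th9) and 1.39 (iTreg) on the log2 scale.

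Of 15 measured genes of haem synthesis and breakdown, 4 were higher and 1 lower in Th2, 5 and 1 in Th9, and 2 and 2 in iTreg. Those lower became 2 in Th2 and in Th9 with the scanner software's ratio and with the authors' series values. Beside the counts with loess, 14.8%, 15.5% and 10.2% of all measured genes were higher and 14.5%, 15.6% and 8.15% lower. Alad, the enzyme that joins aminolaevulinate into porphobilinogen, was higher in Th2 (2 ± 0.28) and Th9 (1.80 ± 0.27) and stood at 0.59 ± 0.21 in iTreg. Blvrb, a biliverdin reductase, and Abcb10, a mitochondrial transporter, were higher in all cultures, at 1.89, 1.6 and 1.6 for Blvrb and 1.14, 1.24 and 1.40 for Abcb10. Hmox1, the haem oxygenase that frees iron from haem, stood at -0.77 ± 0.24, -0.99 ± 0.25 and -1.31 ± 0.30. Uros, uroporphyrinogen synthase, was the lowest (-2.80 ± 0.37, -2.89 ± 0.38 and -2.32 ± 0.32).

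Of 30 genes of mitochondrial iron and iron-sulphur assembly 4 were higher and 1 lower in Th2, 3 and 1 in Th9, and 3 and 0 in iTreg. With median centring 9 were higher and 0 lower in Th2, and 7 and 0 in Th9. All measured genes had shares of 14.8%, 15.5% and 10.2% higher and 14.5%, 15.6% and 8.15% lower with loess. Fdx1, a ferredoxin that passes electrons to iron-sulphur and steroid enzymes, was higher in all cultures (1.11, 1.74 and 1.48), and so was Nubpl, an assembly factor of respiratory complex I (1.62, 1.48 and 1.13). Hspa9, the mitochondrial chaperone of cluster transfer, stood at 1.43, 0.85 and -0.42. Iscu, the scaffold protein, was the lowest in iTreg at -0.75. Ndor1 had the lowest ratio in Th2 and Th9 (-1.31 in each), which with median centring became 0.42 and 0.13. Its other probe gave -0.55 in Th2, -0.52 in Th9 and -0.60 in iTreg, where the first gave -0.02. The mean of both probes, -0.93 and -0.92 in Th2 and Th9, was not past 2-fold.

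**Figure D4:**
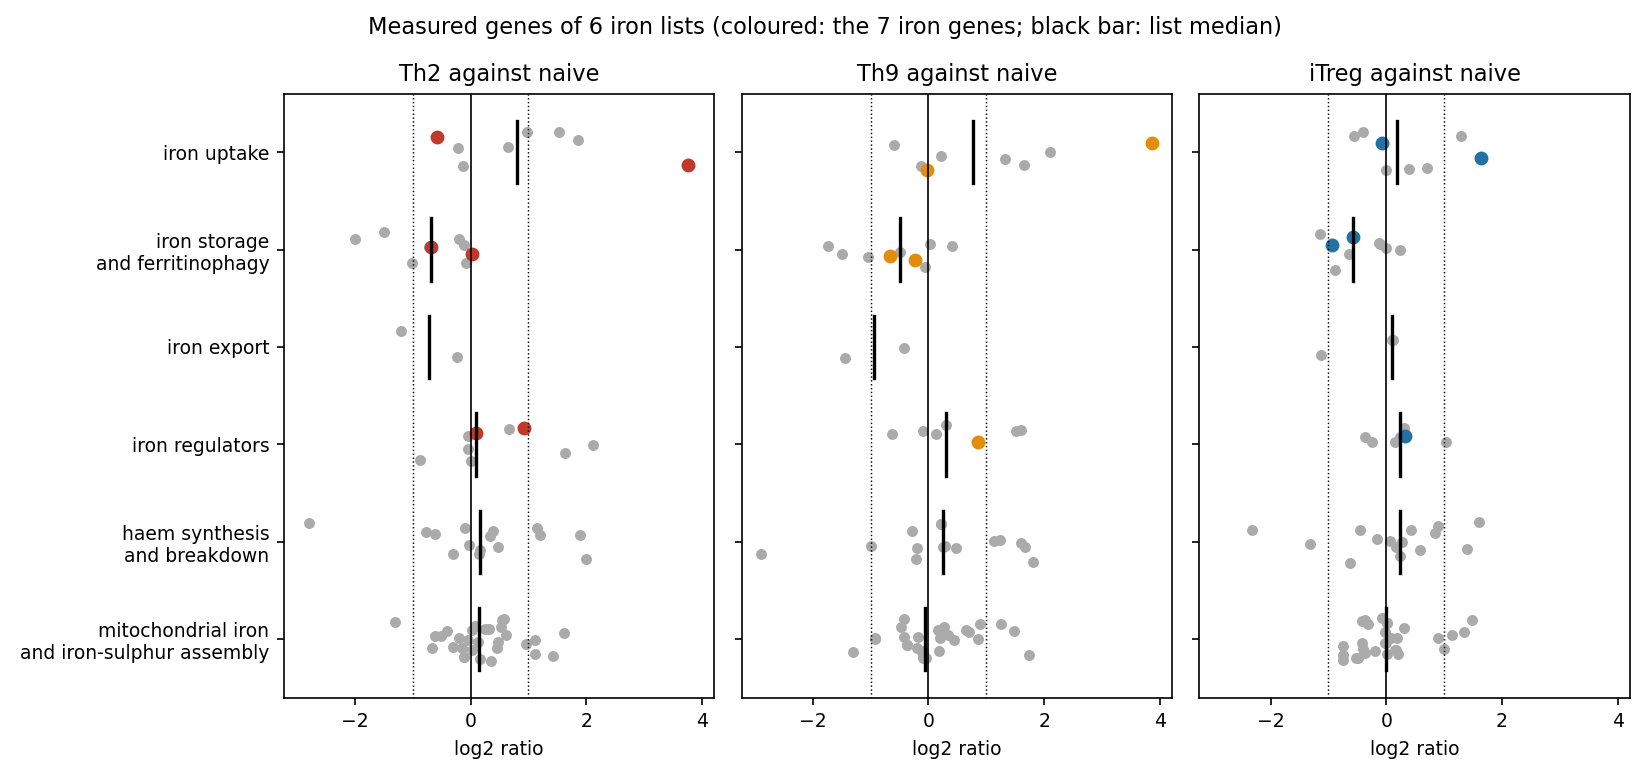
Log2 ratio over naive (x axis) of measured genes in 6 lists of iron metabolism (y axis) in Th2, Th9 and iTreg, 1 array each; each point is a gene, coloured points are the 7 iron genes, black bars are list medians and dotted lines mark 2-fold. Tfrc stands apart on the right in Th2 and Th9 and is nearer to the other genes in iTreg.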

How the data were processed

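Per the file headers, the deposited scanner files were made with Agilent Feature Extraction 11.0.1.1, while the submitters' processing notes name 9.3.2.1. They hold, per the file headers, the median spot and background intensity in both channels, processed intensity values that the software had background-subtracted and dye-normalised, the log10 of the Cy5 to Cy3 ratio and its error, and a p-value for that ratio on a single array, which was not used. The deposited series values were found to be a log2 ratio of the processed signals, Cy5 over Cy3, shifted by a constant on each array (0.0562 on the Th2, 0.0206 on the Th9 and 0.0365 on the iTreg array), with medians of 0.138, 0.259 and 0.283. Why it was shifted is not given in the sources used here.

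Median intensities were background-corrected by normexp (offset 50) and each array was loess-normalised on the log2 ratio with limma 3.58.1 in R 4.3.3. Control spots had no weight and outlier spots were dropped. Levels were read after the arrays had been brought to the same quantiles of mean intensity (Aquantile). Probes were named by RefSeq accession (26049 of 39429 probes, 66.1%, assembly GRCm38.p6, names only), and a gene's brightest probe stands for it. Differences of at least 2-fold (log2 of 1) were counted, with no test, since there is 1 array per culture and their number limits the precision. The procedure was also run on simulated arrays with few changed genes, as many higher as lower. These cannot show how loess treats bright genes that differ together, so they do not bear on the ferritin ratios. Python 3.11.15 with pandas 2.3.3 was used for tables.

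The genes and lists were chosen with earlier results of these data known. Genes named beyond the 7 are those highest or lowest in a list in any culture, those 2-fold different from naive on all arrays, the 3 nearest in ratio to each of the 7, and cell type markers. Vcam1, Spic, C1qc, Mrc1, Lyz2, Cd163, Cd5l, Csf1r, Hba-a1, Hbb-bt, Epor, Slc4a1, Cd79b, Gzma, Cd8a, Cd8b1, Il4, Il9, Foxp3, Slc48a1, Pcbp1, Gabarapl2, Cdc42bpa, Hmox1 and Hspa9 fall outside these rules and were picked after their values were seen. Cd68 and Hbb-b1 had no named probe. Alternatives were median centring, the software's ratio, no offset, no background correction, no filter, averaged probes, the authors' series values and direct comparison of channels.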

Additional observations from a re-analysis of the deposited data

Results flagged for a closer look

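Slc39a14, a zinc and iron transporter, went in opposite directions from naive cells in different cultures, past the error of its spot in Th2 and in iTreg. Its log2 ratio was 0.64 in Th2 and 0.21 in Th9, whereas iTreg had -0.55. The difference was not tested, since each culture has 1 array.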

How the results depend on the processing

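No paired analysis was possible because each culture has 1 array and no result comes from a test, and no replicate could be left out. Tfrc stayed at least 2-fold higher than naive in each culture under all 7 alternatives (3.69 to 4.2 in Th2, 3.72 to 4.23 in Th9, 1.36 to 2.0 in iTreg) and at least 2-fold lower in iTreg than in Th2 (-2.72 to -2.04) and Th9 (-2.62 to -2.07) under all 8. The count of members at least 2-fold different from naive, 1 in each culture, became 3 in Th2 and 2 in Th9 with median centring. It became 2 in both with the scanner software's ratio, with no offset and with the authors' series values, 2 in Th2 with no background correction, and 2 in all cultures with no filter on dim spots, which lets Slc40a1 in. The share of all genes called under each alternative is not set beside these counts, so they say nothing of the members as a set. With median centring the counts for iTreg against Th2 and against Th9 became 3 and 3, the ferritin genes being added, while more genes were called in all. That setting also turned the sign of Ndor1 (0.42 in Th2, 0.13 in Th9). It changed the other iron genes at least 2-fold different in Th2 to 20 higher and 2 lower, and those lower in Th9 to 3. Of all genes called, the share that was higher went to 77.4%, 65.2% and 40.6% in Th2, Th9 and iTreg with median centring, beside 50.5%, 49.8% and 55.7% with loess. Between cultures it was 29.5% for Th9 against Th2, 7.8% for iTreg against Th2 and 15.3% for iTreg against Th9, beside 48.2%, 50.7% and 52%. Of 10535 genes 3068 were then called for iTreg against Th2, beside 1429 with loess. For iTreg against Th9 it was 2085 of 10477, beside 1372. The cause was not tested. Naive levels of the 7 genes spanned a median of 0.13 over the arrays, beside 0.091 over 11514 genes, and were not computed under the alternatives. Signal over background limits Aco1, Slc40a1 and, in size, Ireb2.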
